A study of Mus musculus with 6 samples.

Results

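Interferon and innate inflammatory signalling genes are the receptors, adaptors, transcription factors and induced genes through which cells sense microbial products, interferons, tumour necrosis factor and interleukin 1. The module is a list of 42 genes given by name, and 36 of them had a probe set annotated to that gene alone, among 19937 genes measured in this way. Isg15 and Gbp2 were covered only by probe sets shared with another gene, and Tlr5, Irak4, Il1r1 and Nfkb1 were not analysed here. The 36 measured genes comprised 7 Toll-like receptors, 4 adaptors and kinases downstream of them, 6 cytokine receptors, 4 NF-kB genes, 4 JAK and STAT genes, 6 interferon regulatory factors (IRF) and 5 induced genes.

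The cells were sorted from CD1 mouse embryos at stage E11.5 (embryonic days), from the AGM region (aorta, gonads and mesonephros), the tissue in which definitive haematopoietic stem cells arise from the wall of the dorsal aorta. Both populations carried the endothelial and progenitor antigen CD31 and lacked the leukocyte antigen CD45 and the red cell antigen Ter119, and both are labelled as time T0 with no treatment named. The c-kit-positive (Ckit+) population carried the receptor for stem cell factor and the c-kit-negative (Ckit-) population did not, with 3 arrays each. The replicates are labelled biological, and how many embryos each one pooled is not given in the sources used here, so the p-values speak only of how these 6 arrays vary.

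Toll-like receptors recognise parts of microbes and nucleic acids, and signal through the adaptors MyD88 and TRIF to NF-kB and IRF factors. Type I and type II interferons bind receptors made of 2 different chains, whose JAK kinases activate STAT proteins and so switch on genes with an interferon-stimulated response element (ISRE) or a gamma-activated site (GAS). In the embryo, work in mouse and zebrafish has linked sterile inflammatory signalling through these pathways to the emergence of blood stem cells from endothelium. The comparison asks which of these components differ between the c-kit-positive and the c-kit-negative side of this sort.

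The calls of the module lay among its receptors, and no adaptor, kinase, transcription factor or induced gene passed; whether the roles differ in this was not tested. In c-kit-positive cells 3 of the 36 genes fell and 0 rose at a Benjamini-Hochberg adjusted p under 0.05 (limma, two-sided). These were Ifnar2, a chain of the type I interferon receptor, at 2.03-fold lower, Ifngr2, a chain of the interferon gamma receptor, at 1.76-fold lower, and Tlr3, the endosomal receptor for double-stranded RNA, at 1.94-fold lower. Over all genes tested, 7.41% were called in either direction, 4.7% lower and 2.71% higher, so 3 calls among 36 genes are near the background and are not a result about the module as a whole. At an unadjusted p under 0.05 the module held 11 genes, against 21% of all genes tested. The median difference, c-kit-positive minus c-kit-negative, was -0.16 on the log2 scale over the module and 0.07 over all genes, and 25 of the 36 genes, or 69.4%, had the lower mean in c-kit-positive cells, against 38.9% of all genes. The 3 values of one population lay wholly beyond those of the other for 10 of the 36 genes, where 26.8% of all genes do so. Of these 10 genes 9 were lower and 1 was higher in c-kit-positive cells, while over all genes 10.6% lay wholly lower and 16.2% wholly higher.

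**Figure D1:**
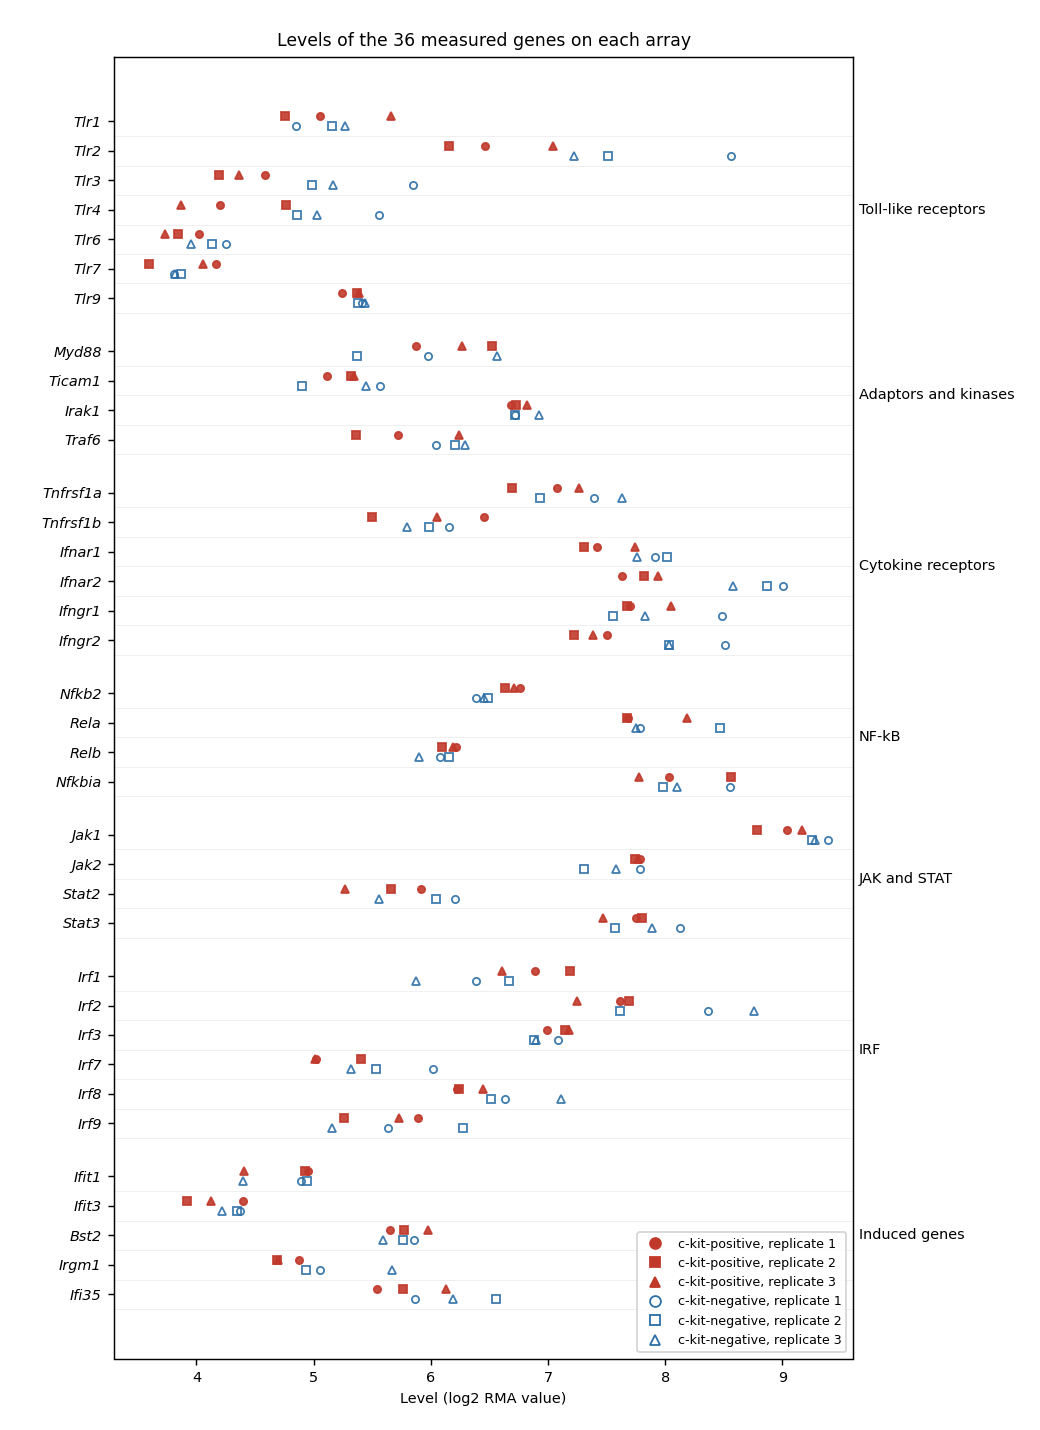
Level of each of the 36 measured genes on each of the 6 arrays, as log2 RMA values on the horizontal axis, with c-kit-positive arrays as filled red symbols drawn above the open blue symbols of the c-kit-negative arrays. The groups stand apart for Ifnar2, Ifngr2 and Tlr3 and overlap for most NF-kB, IRF and induced genes; levels of different genes come from different probe sets and are not comparable.

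Both populations were first set against the genes of the gate and the markers of cell types it could hold. Kit was higher by 1.33 (log2), which the sort on its protein fixes, and Pecam1, which encodes CD31, was lower by a difference of -0.90 (adjusted p = 0.00597). Ptprc, which encodes CD45, was at 8.52 ± 0.13 in the c-kit-positive arrays and 8.75 ± 0.60 in the c-kit-negative arrays (log2, SD, n = 3 each, adjusted p = 0.689). It was at 9.40, 8.66 and 8.21 in c-kit-negative replicates 1, 2 and 3. In every array of both populations it lay above the array medians of 5.42 to 5.52. All 20 endothelial markers were lower in c-kit-positive cells, by a median of -2.50, and 15 of 17 germ cell markers were higher. Of 18 macrophage markers 4 were lower and none higher, with a median of -0.67: Csf1r, Ctss and Mpeg1, at differences of -1.97, -2.05 and -1.46, and Tyrobp. Over the 6 fits that left out 1 array, Csf1r kept its call in 6, Ctss in 5, Mpeg1 in 3 and Tyrobp in 0. Of 18 leukocyte markers 2 were higher and 1 lower, and 8 of 15 mesenchymal and 3 of 9 erythroid markers were lower. Among all genes tested, 4.7% were called lower and 2.71% higher. The mean macrophage marker level was 5.93, 5.89 and 6.11 in c-kit-positive replicates 1, 2 and 3, against 7.355, 6.501 and 6.372 in c-kit-negative replicates 1, 2 and 3. All 18 macrophage markers had their highest c-kit-negative value in replicate 1, so that array stood apart although CD45, which macrophages carry, was gated against. Summed over the list, the macrophage level was 11.36 to 11.43 (log2) in the c-kit-positive and 11.78 to 12.49 in the c-kit-negative arrays. In sorted bulk samples such as these, fewer cells of a type and less RNA per cell cannot be told apart.

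The interferon receptors held the clearest difference. Ifnar2 binds type I interferon together with Ifnar1 and carries the docking site for STAT proteins. Its level was 7.63, 7.82 and 7.94 (log2) in c-kit-positive replicates 1, 2 and 3, against 9.003, 8.865 and 8.580 in c-kit-negative replicates 1, 2 and 3. The groups did not overlap, and the gap between them was wider than the range within either one. Of the c-kit-negative arrays, replicate 1 was the highest, as it was for the macrophage markers. The difference was -1.02 ± 0.16 (log2, SE, limma) with an adjusted p of 0.00704. It was the only gene of the module whose call held with each of the 6 arrays left out in turn (adjusted p between 0.0106 and 0.0297).

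Ifngr2 encodes the signalling chain of the interferon gamma receptor, to which JAK2 is bound. Its level was 7.51, 7.22 and 7.38 in c-kit-positive replicates 1, 2 and 3, against 8.51, 8.03 and 8.03 in c-kit-negative replicates 1, 2 and 3. Every c-kit-positive array lay below every c-kit-negative one, and c-kit-negative replicate 1 was the highest. The difference was -0.82 ± 0.17 (log2, SE, adjusted p = 0.0257). The call held without c-kit-negative replicate 2 or 3. It was lost when c-kit-negative replicate 1 or any 1 of the c-kit-positive arrays was left out, with adjusted p-values between 0.0506 and 0.0822, while the difference stayed between -0.90 and -0.66 over the 6 fits that left out 1 array.

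The partner chains had smaller differences. Ifnar1 was at 7.49 ± 0.23 in the c-kit-positive arrays and 7.90 ± 0.13 in the c-kit-negative arrays (SD, n = 3 each). The difference was -0.41 with a 95% interval from -0.78 to -0.04 that did not pass after adjustment (adjusted p = 0.185). Ifngr1, the ligand-binding chain for interferon gamma, was at 7.81 ± 0.21 in the c-kit-positive arrays and 7.95 ± 0.48 in the c-kit-negative arrays (SD, n = 3 each; interval of the difference -0.70 to 0.40, adjusted p = 0.782), and its groups overlapped. The difference of Ifnar2 was further below 0 than that of Ifnar1, by -0.61, and that of Ifngr2 further than that of Ifngr1, by -0.67. In an exact two-sided permutation test over the 6 arrays both gave p = 0.1, the smallest that 3 against 3 arrays allow, and 0.133 after adjustment over the 4 pairs of receptor chains compared. These pairs were chosen after the values were seen.

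Ifnar2, Il10rb, Ifnar1 and Ifngr2 lie next to each other on mouse chromosome 16 in the RefSeq annotation of GRCm38.p6. Il10rb, which encodes a chain shared by the receptors for interleukin 10 and interferon lambda, was at 5.45 ± 0.45 in the c-kit-positive arrays and 5.72 ± 0.46 in the c-kit-negative arrays (SD, n = 3 each, difference -0.26, adjusted p = 0.657). The protein-coding neighbours on either side were Olig1, with a difference of -0.03 (interval -0.36 to 0.29, adjusted p = 0.924), and Tmem50b, with -0.57 (interval -1.70 to 0.55, adjusted p = 0.566). The wide interval of Tmem50b holds the difference of Ifngr2, so the missing call does not show that Tmem50b was unchanged. The calls within this row of genes were thus those of the first and the last receptor gene, and the flanking genes did not pass.

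The promoters of the 3 genes that fell are shown because they differed between the populations. Each is the run of 250 bases before the annotated start (RefSeq, GRCm38.p6), 5′ to 3′ on the strand of the gene, and capitals mark every match within it on either strand to the letters searched. These were GAAA, any 2 bases and GAAA for the ISRE, TTC, any 3 bases and GAA for the GAS, and GGG, any 5 bases and CC for NF-kB. Ifnar2 lies at chr16:91372533-91372782 (plus strand), Ifngr2 at chr16:91546809-91547058 (plus strand) and Tlr3 at chr8:45410381-45410630 (minus strand).
Ifnar2: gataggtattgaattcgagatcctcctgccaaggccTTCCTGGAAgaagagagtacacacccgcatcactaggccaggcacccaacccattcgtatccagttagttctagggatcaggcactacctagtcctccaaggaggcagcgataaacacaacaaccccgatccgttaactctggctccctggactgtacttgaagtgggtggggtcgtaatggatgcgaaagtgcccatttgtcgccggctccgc
Ifngr2: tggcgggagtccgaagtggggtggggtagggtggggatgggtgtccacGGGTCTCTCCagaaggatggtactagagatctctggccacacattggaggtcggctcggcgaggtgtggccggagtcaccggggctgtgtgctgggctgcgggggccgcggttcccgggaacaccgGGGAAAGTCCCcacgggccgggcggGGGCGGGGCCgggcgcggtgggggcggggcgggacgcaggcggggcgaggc
Tlr3: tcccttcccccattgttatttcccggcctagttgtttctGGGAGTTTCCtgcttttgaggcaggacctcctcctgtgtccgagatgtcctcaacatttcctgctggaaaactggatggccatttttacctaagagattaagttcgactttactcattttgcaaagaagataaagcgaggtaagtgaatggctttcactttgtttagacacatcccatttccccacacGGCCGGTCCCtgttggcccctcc

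The window of Ifnar2 held a GAS match, and those of Ifngr2 and Tlr3 held NF-kB matches. No ISRE letters occurred in the 3 windows. In windows of the same length, GAS letters were found in 7.02% and NF-kB letters in 45.8% of 32851 mouse promoters, so a match to the NF-kB letters is common. With the 50 bases after the start included, Ifnar2 also held NF-kB letters and Tlr3 held a further match to them. A match describes the letters and does not show binding.

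The tumour necrosis factor receptors did not pass. Tnfrsf1a, the broadly expressed receptor, was at 7.01 ± 0.29 in the c-kit-positive arrays and 7.32 ± 0.36 in the c-kit-negative arrays (SD, n = 3 each), with an interval of the difference from -0.81 to 0.20. Tnfrsf1b, the receptor of leukocytes and endothelium, was at 6.45, 5.499 and 6.05 in c-kit-positive replicates 1, 2 and 3, against 6.16, 5.99 and 5.79 in c-kit-negative replicates 1, 2 and 3, with an interval from -0.52 to 0.56. For both genes the arrays of the populations overlapped. The interval of Tnfrsf1b leaves room for the difference of the partner chain Ifnar1 (-0.41), and that of Tnfrsf1a reaches close to the difference of Ifngr2 (-0.82).

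Of 7 Toll-like receptors, 1 fell and 3 had an unadjusted p under 0.05 in limma. Among all genes tested, 4.7% were called lower and 21% had such an unadjusted p. Tlr3 was at 4.58, 4.19 and 4.37 (log2) in c-kit-positive replicates 1, 2 and 3, against 5.85, 4.99 and 5.17 in c-kit-negative replicates 1, 2 and 3. The groups did not overlap, and c-kit-negative replicate 1 again stood highest. In every other array Tlr3 lay below the array medians of 5.42 to 5.52 (log2), and no detection call was used. The difference was -0.96 ± 0.23 (log2, SE, adjusted p = 0.0446), and it passed in only 1 of the 6 fits that left out an array, the one without c-kit-negative replicate 2. Without c-kit-positive replicates 1, 2 and 3 its adjusted p was 0.0744, 0.124 and 0.112, and without c-kit-negative replicates 1 and 3 it was 0.0809 and 0.081.

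Tlr2 and Tlr4, the receptors for bacterial lipopeptides and for lipopolysaccharide, had differences of similar size to that of Tlr3. Tlr2 was at 6.47, 6.15 and 7.04 in c-kit-positive replicates 1, 2 and 3, against 8.56, 7.51 and 7.22 in c-kit-negative replicates 1, 2 and 3 (difference -1.21 ± 0.36, SE, adjusted p = 0.0852). Tlr4 was at 4.20, 4.76 and 3.87 in c-kit-positive replicates 1, 2 and 3, against 5.56, 4.86 and 5.03 in c-kit-negative replicates 1, 2 and 3 (difference -0.87 ± 0.26, SE, adjusted p = 0.092). Neither pair of groups overlapped, and neither gene passed after adjustment. Both were highest in c-kit-negative replicate 1, the array with the highest macrophage marker level, and the part of those cells in the result was not tested. Without that array the difference of Tlr2 was -0.81 and that of Tlr4 was -0.67. Tlr4 passed without c-kit-positive replicate 2, at -1.11 and an adjusted p of 0.0419. Like Tlr3, it lay below the array medians of 5.42 to 5.52 (log2) in every array but c-kit-negative replicate 1.

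The partners of Tlr2 and the endosomal receptors other than Tlr3 did not pass in limma. Tlr1 and Tlr6, which pair with Tlr2, had differences of 0.06 (interval -0.48 to 0.61) and -0.25 (interval -0.58 to 0.09). Tlr7, a receptor for single-stranded RNA, and Tlr9, the receptor for unmethylated CpG DNA, had differences of 0.11 (interval -0.28 to 0.50) and -0.08 (interval -0.37 to 0.21). In all 4 genes the arrays of the populations overlapped. Tlr6 and Tlr7 lay below the array medians of 5.42 to 5.52 (log2) in every array, and no detection call was used. The difference of Tlr2 was further below 0 than that of Tlr1, by -1.28 (exact permutation p = 0.1), and than that of Tlr6, by -0.97 (exact permutation p = 0.2), which are 0.133 and 0.2 after adjustment over the 4 pairs.

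**Figure D2:**
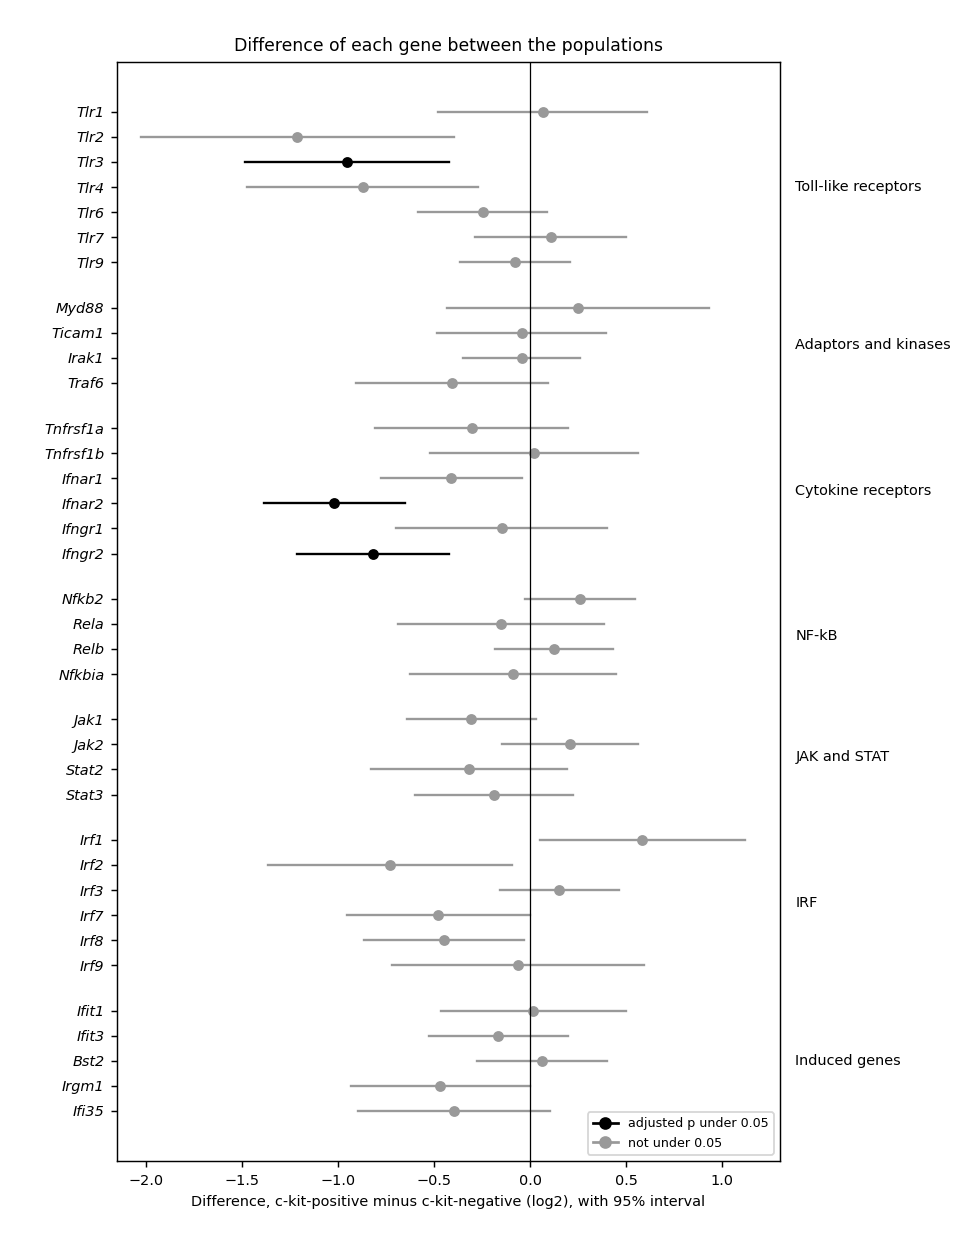
Difference of each measured gene, c-kit-positive minus c-kit-negative, on the log2 scale with its 95% interval from limma; black marks an adjusted p under 0.05. Tlr3, Ifnar2 and Ifngr2 are the genes that passed, and Tlr2 has the lowest difference at -1.21 with a wide interval from -2.03 to -0.40.

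None of the 4 adaptors and kinases passed in limma, and 0 of them had an unadjusted p under 0.05, against 21% of all genes. Traf6, the ubiquitin ligase on which Toll-like and interleukin 1 receptor signals converge, had the smallest p, at 5.72, 5.36 and 6.24 in c-kit-positive replicates 1, 2 and 3, against 6.04, 6.20 and 6.30 in c-kit-negative replicates 1, 2 and 3. The groups overlapped and the difference was -0.41 ± 0.22 (log2, SE, adjusted p = 0.341). Myd88, the adaptor of most Toll-like receptors, was at 6.22 ± 0.33 in the c-kit-positive arrays and 5.97 ± 0.60 in the c-kit-negative arrays (SD, n = 3 each), and its interval ran from -0.43 to 0.93. Ticam1, which encodes TRIF, the adaptor of Tlr3, differed by -0.04 (interval -0.49 to 0.40), and the kinase gene Irak1 by -0.04 (interval -0.35 to 0.26).

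Of the 4 NF-kB genes none passed, and 0 had an unadjusted p under 0.05, against 21% of all genes. Nfkb2, the precursor of the p52 subunit, was at 6.76, 6.64 and 6.71 in c-kit-positive replicates 1, 2 and 3, against 6.38, 6.49 and 6.46 in c-kit-negative replicates 1, 2 and 3. It was the one gene of the module that was higher in every c-kit-positive array than in any c-kit-negative array, by 0.26 ± 0.13 (log2, SE, adjusted p = 0.286). Relb, the partner of p52, differed by 0.13 (interval -0.18 to 0.43), Rela, the main activating subunit, by -0.15 (interval -0.69 to 0.38), and Nfkbia, an inhibitor of NF-kB that is itself induced by it, by -0.09 (interval -0.63 to 0.45).

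The JAK and STAT genes were also without a call in limma, with 0 of 4 at an unadjusted p under 0.05, against 21% of all genes. Jak1, the kinase shared by both interferon receptors, was at 9.04, 8.79 and 9.17 in c-kit-positive replicates 1, 2 and 3, against 9.39, 9.25 and 9.27 in c-kit-negative replicates 1, 2 and 3. The groups did not overlap, and the difference of -0.31 ± 0.15 (log2, SE) did not pass (adjusted p = 0.28). Jak2, the kinase of the Ifngr2 chain and of several haematopoietic cytokine receptors, differed by 0.21 (interval -0.15 to 0.56). Stat2, a part of the complex that binds the ISRE, differed by -0.32 (interval -0.83 to 0.19), and Stat3, activated by the interleukin 6 family, by -0.19 (interval -0.60 to 0.22).

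Among the 6 IRF genes 4 had an unadjusted p under 0.05, against 21% of all genes tested, and none passed after adjustment in limma. Whether so small a list differs from that share was not tested. Irf2, a repressor of interferon-induced genes, had the smallest p, at 7.61, 7.69 and 7.25 in c-kit-positive replicates 1, 2 and 3, against 8.37, 7.62 and 8.76 in c-kit-negative replicates 1, 2 and 3. The groups overlapped because c-kit-negative replicate 2 lay at the level of the c-kit-positive arrays. The difference was -0.73 ± 0.28 (log2, SE, adjusted p = 0.175), and without c-kit-negative replicate 2 it was -1.04 with an adjusted p of 0.0316. Irf1, the activator induced by interferon gamma, had the highest difference of the module, 0.58 ± 0.23 (SE, adjusted p = 0.193), at 6.89, 7.18 and 6.60 in c-kit-positive replicates 1, 2 and 3, against 6.38, 6.67 and 5.87 in c-kit-negative replicates 1, 2 and 3. Irf1 has another probe set, chosen against by its lower mean, which differed by 0.49 and whose groups did not overlap. The means of Irf1 and of its antagonist Irf2 thus lay on opposite sides, and neither difference passed.

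Irf8, a factor of macrophage and dendritic cell development, was at 6.30 ± 0.12 in the c-kit-positive arrays and 6.75 ± 0.32 in the c-kit-negative arrays (SD, n = 3 each). Its groups did not overlap, and the difference of -0.45 did not pass (adjusted p = 0.204). Irf7, the amplifier of type I interferon production, was at 5.15 ± 0.23 in the c-kit-positive arrays and 5.62 ± 0.36 in the c-kit-negative arrays (SD, n = 3 each, difference -0.48, adjusted p = 0.236), and it was highest in c-kit-negative replicate 1. Irf3, which acts directly below TRIF, differed by 0.15 (interval -0.16 to 0.46), and Irf9, the DNA-binding part of the ISRE complex, by -0.06 (interval -0.72 to 0.59).

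The induced genes report on interferon signalling in many cell types, and none of the 5 passed in limma. Of them 1 had an unadjusted p under 0.05, against 21% of all genes tested. Irgm1, a GTPase induced by interferon gamma that is also known for its part in mouse blood stem cells, was at 4.88, 4.69 and 4.70 in c-kit-positive replicates 1, 2 and 3, against 5.06, 4.93 and 5.67 in c-kit-negative replicates 1, 2 and 3. Its groups did not overlap, and c-kit-negative replicate 3 was the highest (difference -0.47 ± 0.20, SE, adjusted p = 0.236). Ifit1, which binds foreign RNA, was at 4.76 ± 0.31 in the c-kit-positive arrays and 4.74 ± 0.30 in the c-kit-negative arrays (SD, n = 3 each), and the interval from -0.46 to 0.50 spans differences of either sign. Ifit3, the partner of Ifit1, differed by -0.16 (interval -0.53 to 0.20), Bst2, or tetherin, by 0.06 (interval -0.28 to 0.40), and Ifi35 by -0.39 (interval -0.89 to 0.10). Ifit1 and Ifit3 lay below the array medians of 5.42 to 5.52 (log2) in every array, and no detection call was used. Their small differences therefore do not show that interferon signalling was alike in the populations.

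The members without a probe set of their own were read only as shared signals. The probe set of Isg15 and Gm9706 differed by -0.24 (interval -0.91 to 0.44), and that of Gbp2 and Gbp2b by -0.12 (interval -1.04 to 0.80). In both the arrays of the populations overlapped, and the share of each gene in the signal is unknown.

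The ISRE is the element through which type I interferon is known to act. The ISRE stretches of 4 measured induced genes are shown because they hold the letters searched for it, and none of the 4 genes passed here. They come from RefSeq (GRCm38.p6), read 5′ to 3′ on the strand of the gene, and capitals mark the ISRE letters or their reverse complement. The stretches lie at chr19:34640770-34640828 (Ifit1, plus strand), chr19:34583358-34583431 (Ifit3, plus strand), chr8:71537572-71537617 (Bst2, minus strand) and chr11:48871421-48871465 (Irgm1, minus strand).
Ifit1: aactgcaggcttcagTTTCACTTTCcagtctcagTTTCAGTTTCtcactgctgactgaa
Ifit3: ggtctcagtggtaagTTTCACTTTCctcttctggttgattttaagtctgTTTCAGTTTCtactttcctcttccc
Bst2: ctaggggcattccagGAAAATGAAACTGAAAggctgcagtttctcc
Irgm1: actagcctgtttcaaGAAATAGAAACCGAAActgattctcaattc

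ISRE letters were found in the promoters of 6 of the 7 induced genes, all but Ifi35, and in 11 of the 38 module genes that have a promoter in the table, against 3.99% of all 27025 genes with a promoter there, in windows from 250 bases before to 50 after the start. Ifit1 and Ifit3 each held 2 separate matches, and those of Bst2 and Irgm1 overlapped within a single run. In Bst2 the run also overlaps a GAS match. The genes were picked for their known role, so this share describes the list and is no test of it.

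Across arrays, 18 of the 36 module genes had their highest c-kit-negative value in replicate 1, against 30.1% of all genes. The mean level of the Toll-like receptors was 4.82, 4.67 and 4.87 in c-kit-positive replicates 1, 2 and 3, against 5.47, 5.13 and 5.13 in c-kit-negative replicates 1, 2 and 3. That of the cytokine receptors was 7.30, 7.04 and 7.40 in c-kit-positive replicates 1, 2 and 3, against 7.91, 7.56 and 7.60 in c-kit-negative replicates 1, 2 and 3. The IRF genes had means of 6.44, 6.49 and 6.37 in c-kit-positive replicates 1, 2 and 3, against 6.69, 6.58 and 6.52 in c-kit-negative replicates 1, 2 and 3. The means of both receptor lists and of the IRF list thus stood lower in every c-kit-positive array, with c-kit-negative replicate 1 at the top. For the IRF list this depended on the summary, as the difference was -0.16 by means and 0.10 by medians. Its genes had their highest c-kit-negative value equally often in replicates 1, 2 and 3, 2 genes each. The induced genes had means of 5.08, 5.01 and 5.07 in c-kit-positive replicates 1, 2 and 3, against 5.21, 5.31 and 5.21 in c-kit-negative replicates 1, 2 and 3, where c-kit-negative replicate 1 was not the highest. On the same arrays the endothelial markers had means of 5.89 to 5.99 in c-kit-positive and 8.53 to 8.65 in c-kit-negative cells, and their part in the receptor differences was not tested. Without c-kit-negative replicate 1, Ifnar2 alone of the module passed, at -0.93 and an adjusted p of 0.0297.

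**Figure D3:**
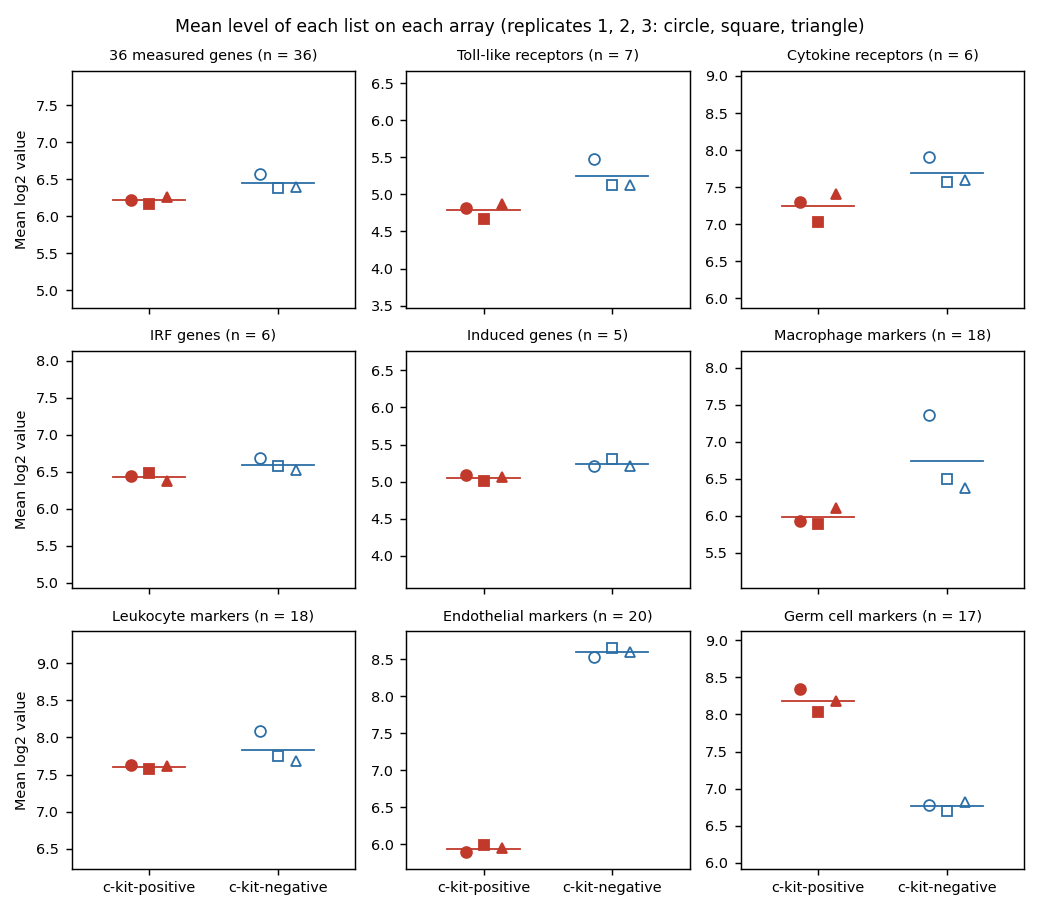
Mean log2 value of each gene list on each array, c-kit-positive in filled red and c-kit-negative in open blue, with replicates 1, 2 and 3 as circle, square and triangle and a line at the group mean; every panel spans the same height on its axis. The macrophage markers are highest in c-kit-negative replicate 1 (7.35), which is also the top array of the Toll-like and cytokine receptors, while endothelial markers do not set that array apart.

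Another 134 measured genes of the same pathways were followed in 5 lists. Of these 6 fell and 5 rose, and 123 did not pass, with a median difference of -0.03. That is again near the 4.7% and 2.71% of all genes, and the calls are given gene by gene.

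Casp1, Il1b and Il1r2, from 3 of these lists, fell in c-kit-positive cells. Casp1, the protease that matures interleukin 1 beta, was at 3.97, 4.21 and 3.94 in c-kit-positive replicates 1, 2 and 3, against 6.78, 6.16 and 5.43 in c-kit-negative replicates 1, 2 and 3. It fell by 2.08 ± 0.30 (log2, SE, adjusted p = 0.00443), or 4.24-fold, and passed with each array left out. Il1b, the cytokine itself, was 2.14-fold lower (5.26 ± 0.09 in the c-kit-positive arrays and 6.36 ± 0.46 in the c-kit-negative arrays, SD, n = 3 each, adjusted p = 0.0223), and Il1r2, a decoy receptor for it, 2.50-fold lower (adjusted p = 0.0201). Il1b passed only without c-kit-negative replicate 3 among the 6 fits that left out an array, and Il1r2 was lost without c-kit-positive replicate 2 or 3 (adjusted p = 0.0637 and 0.0621). Other genes of interleukin 1 signalling and processing did not pass, here named after their values were seen: Nlrp3 differed by -0.62 (adjusted p = 0.177), Il1a by -1.19 (adjusted p = 0.344), Il1rap by -0.09, Pycard by 0.09 and Il18 by 0.31. Myeloid cells also make Casp1, Il1b and Il1r2, the macrophage markers had a median difference of -0.67, and their part in these calls was not tested.

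Of the other 27 adaptors, sensors and kinases, Nod1, a cytosolic sensor of bacterial peptidoglycan, was the only one besides Casp1 to pass. It was at 4.66, 4.76 and 4.55 in c-kit-positive replicates 1, 2 and 3, against 5.81, 5.61 and 5.67 in c-kit-negative replicates 1, 2 and 3. The spread within each population was small beside the gap of 1.04 ± 0.13 (SE, adjusted p = 0.00262), and the call held with each array left out. Among 20 ligands only Il1b and the neutrophil chemokine gene Cxcl2 fell (2.63-fold lower, adjusted p = 0.0425). Each of these 2 lists thus held 2 lower genes, where 4.7% of all genes were called lower. When 1 array was left out, Cxcl2 passed only without c-kit-negative replicate 3. Cd14, the co-receptor of Tlr4 and Tlr2, named after its value was seen, was at 5.34 ± 0.46 in the c-kit-positive arrays and 6.65 ± 0.72 in the c-kit-negative arrays (SD, n = 3 each) and did not pass (difference -1.31, adjusted p = 0.0711).

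The genes that rose lay among regulators and induced genes. Socs2, a cytokine-induced brake on JAK and STAT signalling, was at 8.39, 8.60 and 8.42 in c-kit-positive replicates 1, 2 and 3, against 6.98, 7.25 and 7.13 in c-kit-negative replicates 1, 2 and 3. It rose by 1.35 ± 0.14 (log2, SE, adjusted p = 0.00088). Socs2 has 2 probe sets, and only the one with the higher mean is given here. Stat4, the STAT of interleukin 12 and type I interferon signalling in lymphocytes, was at 6.48, 6.14 and 6.46 in c-kit-positive replicates 1, 2 and 3, against 5.09, 4.82 and 5.14 in c-kit-negative replicates 1, 2 and 3, a rise of 1.34 ± 0.16 (SE, adjusted p = 0.00173). Both calls held with each array left out, and these were the 2 calls among 19 other factors and brakes. Among all genes 2.71% were called higher.

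Of 49 other induced genes 3 rose and 1 fell, with a median of 0.05. These are 6.1% and 2.0%, where 2.71% of all genes were called higher and 4.7% lower, and the shares were not tested. Ifitm1 was 2.43-fold higher (11.42 ± 0.10 in the c-kit-positive arrays and 10.14 ± 0.32 in the c-kit-negative arrays, SD, n = 3 each, adjusted p = 0.00411) and passed with each array left out. It too has 2 probe sets, of which only the one with the higher mean is given. Ifitm3, which with Ifitm1 encodes interferon-induced membrane proteins that mouse primordial germ cells also carry, was 1.78-fold higher (adjusted p = 0.016). Germ cell markers were higher on the same arrays, 15 of 17, with list means of 8.03 to 8.34 in c-kit-positive and 6.70 to 6.82 in c-kit-negative cells, and their part in these rises was not tested. Parp12, an interferon-induced ADP-ribosyltransferase, was 1.68-fold higher (adjusted p = 0.03), and Ifi30, a lysosomal thiol reductase of antigen-presenting cells, 2.18-fold lower (adjusted p = 0.0154). When 1 array was left out, Ifitm3 passed only without replicate 2 of the c-kit-positive or replicate 3 of the c-kit-negative arrays, Parp12 only without c-kit-positive replicate 2, and Ifi30 was lost without c-kit-negative replicate 1 (adjusted p = 0.0546).

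**Figure D4:**
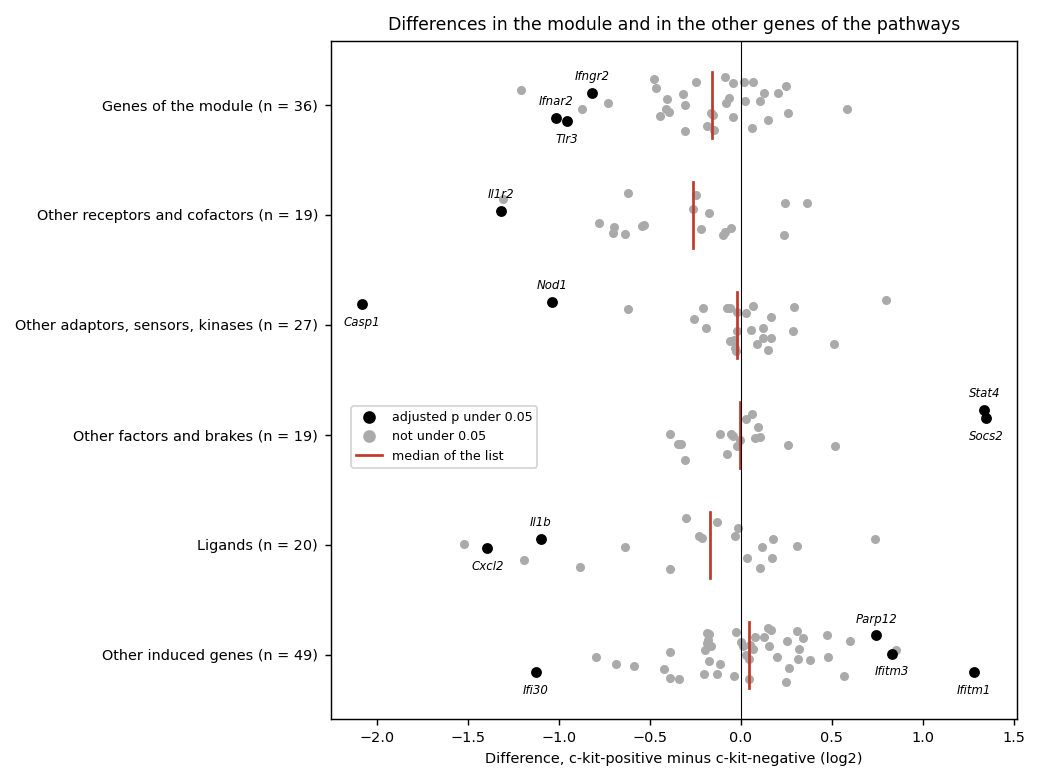
Difference of each gene, c-kit-positive minus c-kit-negative, on the log2 scale, for the 36 module genes and the 134 other pathway genes in 5 lists; vertical scatter within a row has no meaning. Black points passed an adjusted p under 0.05 and are named, red lines are list medians, and Casp1 at -2.08 and Socs2 at 1.35 are the outermost calls.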

How the data were processed

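Total RNA of 6 sorted samples, 5 ng each, was amplified and labelled per the labels' protocols, with 1 array per sample. The deposited values are on the log2 scale and come from RMA, which the submitters' processing notes name without settings or version. Values ran from 1.22 to 13.7, with array medians of 5.42 to 5.52. The number of arrays limits the precision, and no detection call was used. Of 34760 probe sets, 21640 had 1 gene symbol, 1321 several and 11799 none in the platform annotation; 21553 matched RefSeq by Entrez identifier. The probe set with the highest mean represented each of the 954 genes with several.

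All 19937 genes were fitted with limma 3.58.1 in R 4.3.3 (lmFit, eBayes, no block, no filter), with Benjamini-Hochberg adjustment over all of them. The fit was tested on simulated data with 50 genes changed at each of 4 sizes. It recovered 0%, 48%, 90% and 94% of differences of 0.5, 1, 2 and 3 (log2). A missing call there says little about differences of 0.5 or less, and not much more about differences of 1, where 48% were recovered. The simulation called 120 genes, against 1477 in the data, so these shares need not be those of the data. Members, lists and alternatives were chosen with earlier results of these data known. Each member is named. Other lists name up to 4 calls per direction, or the member of smallest p. Alternatives changed the scaling, the dim genes kept, the probe sets tested, the prior, array weights, the block, the threshold and the arrays included.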

Additional observations from a re-analysis of the deposited data

How the results depend on the processing

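Ifnar2 kept its direction and its call under all 15 alternatives tried (differences between -1.14 and -0.93). Same-numbered arrays of the populations did not deviate together (correlations 0.000710, 0.0239 and 0.0590), so the replicate numbers were not taken as pairs. As a block, the number left the 3 calls of the module in place and gave 2 lower genes among the other receptors in place of 1, 1 higher among the other adaptors in place of 0 and 2 lower among the other induced genes in place of 1. It also gave 3 lower ligands in place of 2, 4 higher other induced genes in place of 3, 14 higher germ cell markers in place of 15 and 9 lower mesenchymal markers in place of 8, and over all genes 476 higher and 879 lower in place of 540 and 937. The other counts by list were as without the block. When all probe sets were tested, and at an adjusted p under 0.01, 1 gene of the module was lower in place of 3, with 1 cytokine receptor and 0 Toll-like receptors (adjusted p of Tlr3 0.138 and of Ifngr2 0.0863 over all probe sets); over all genes 151 and 131 were then higher and 524 and 499 lower, against 540 and 937. Without the dimmest 30 or 50 percent of genes, 0 Toll-like receptors were lower, as Tlr3 was no longer among the genes tested.

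With 1 array left out, the genes higher numbered 276 to 369 and those lower 670 to 745 over all genes. The module had 1 to 4 lower genes, the Toll-like receptors 0 to 1, the cytokine receptors 1 to 2 and the IRF genes 0 to 1. Other receptors had 0 to 2 lower genes, other adaptors 0 to 1 higher, ligands 0 to 4 lower, and other induced genes 1 to 3 higher and 0 to 2 lower. Macrophage markers had 1 to 3 lower, leukocyte markers 1 to 2 higher and erythroid markers 0 to 1 higher. No member that was called changed sign. Apart from fewer samples or genes in a fit, the cause of lost calls was not tested.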
